A study of Mus musculus with 346 samples.

Results

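A set of 10 genes that have been proposed as surface or enzyme markers of mammary stem or progenitor cells was followed through 279 single cells sorted as mammary epithelium. They were Cd55, Axl, Aldh1a3, Kit, Cd14, Procr, Prom1, Cd24a, Tspan8 and Cd44. The genes were taken by name, with no cut on their values, once the Entrez numbers in the count files had been matched to mouse symbols. The list was drawn up with earlier results of these data known, so it is not independent of them. All 10 were present among 27179 genes, of which 25175 were analysed. The cells came from untreated FVB/NJ female mice at 3 stages, namely pre-puberty at 2 weeks of age, puberty at 4.7 to 4.9 weeks and adulthood at 10 weeks. The design text of the series names 8 mice per stage, while the study's own account gives other numbers per sort. The cells were sorted as total epithelium with antibodies to CD24 and CD29, the products of Cd24a and Itgb1, after removal of cells with the endothelial or blood cell antigens CD31, CD45 and TER-119. Each cell was then captured, and its RNA copied, in a chamber of its own on a Fluidigm C1 chip, a microfluidic device. The labels tie no cell to a mouse, so each stage was treated as 1 sample. No test between stages was run, and every interval given here is a 95% interval that covers counting error only.

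Of 346 cells, 116 of 144 pre-pubertal, 119 of 136 pubertal and 44 of 66 adult cells had at least 100000 reads on the analysed genes and at least 1500 genes detected, and these were used. Their depth ran from 109394 to 1189810 reads, with medians of 296686, 575345 and 334914 reads at pre-puberty, puberty and adulthood. The label of total epithelium was checked against marker lists after every cell had been thinned to 100000 reads. The median pre-pubertal cell held none of 10 luminal markers and 12 of 15 Schwann cell markers, and 112 of the 116 cells held at least 8 of the latter. The summed Schwann markers lay between 572 and 77473 counts per 1000000 reads (CPM) in the 116 cells, with a median of 14239 CPM. Pubertal and adult cells held a median of 8 and 6 luminal markers and of 1 and 2 Schwann markers. At least 8 Schwann markers were held by 2 of 119 pubertal and 0 of 44 adult cells. Their sum had medians of 122 and 79.3 CPM at these stages and reached 135768 CPM in a pubertal and 5286 CPM in an adult cell. A keratin of the basal (Krt14, Krt5) or luminal (Krt8, Krt18) layer was above 40 reads per 1000 bases and 1000000 reads (RPKM) in 22 of 116 pre-pubertal, 111 of 119 pubertal and 41 of 44 adult cells. The pre-pubertal values are therefore those of cells labelled as epithelium, most of which lacked keratin and held Schwann markers. Stage and this difference in cell type cannot be told apart.

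The mammary gland is a bilayered tree of ducts, with luminal cells facing the lumen and contractile basal cells outside them. Progenitors of each layer are usually sought by sorting on surface proteins. The members play different parts at the cell surface. CD24 and CD44 are broad adhesion markers, and Kit, the receptor of stem cell factor, and CD14 have been used to enrich luminal progenitors. Tspan8, a tetraspanin, has served to divide basal cells when looking for stem cells. Prom1 (CD133) has been linked to hormone-sensing luminal cells, and Procr and Aldh1a3 to rare stem or progenitor populations. CD55 protects cells from complement, and Axl is the receptor tyrosine kinase that binds Gas6. A sort reads protein, whereas all values here are of transcripts.

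Levels are given as RPKM, reads per 1000 bases of gene and per 1000000 reads of the cell, so that genes of different length can be compared. A cell was called positive for a gene above 40 RPKM, the level by which the study marked Cd55-expressing cells, applied here to every member and to the keratins. In a cell of 100000 reads, 40 RPKM is worth 5.99 reads of Cd14 and 22.6 reads of Cd44, the members at either end of that range. The lowest cell was at 0 for every member at every stage. In mouse build GRCm38 the members lie apart from one another. Cd55 (Entrez 13136) spans chr1:130429798-130465009, Axl (26362) chr7:25756500-25788924, Aldh1a3 (56847) chr7:66390892-66427477, Kit (16590) chr5:75574987-75656722 and Procr (19124) chr2:155751125-155755478. Prom1 (19126) spans chr5:43993621-44102047, Cd24a (12484) chr10:43579169-43584265, Tspan8 (216350) chr10:115816817-115849893 and Cd44 (12505) chr2:102811141-102901669. Cd14 has the Entrez number 12475. Reads were counted over the exons of each gene.

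**Figure D1:**
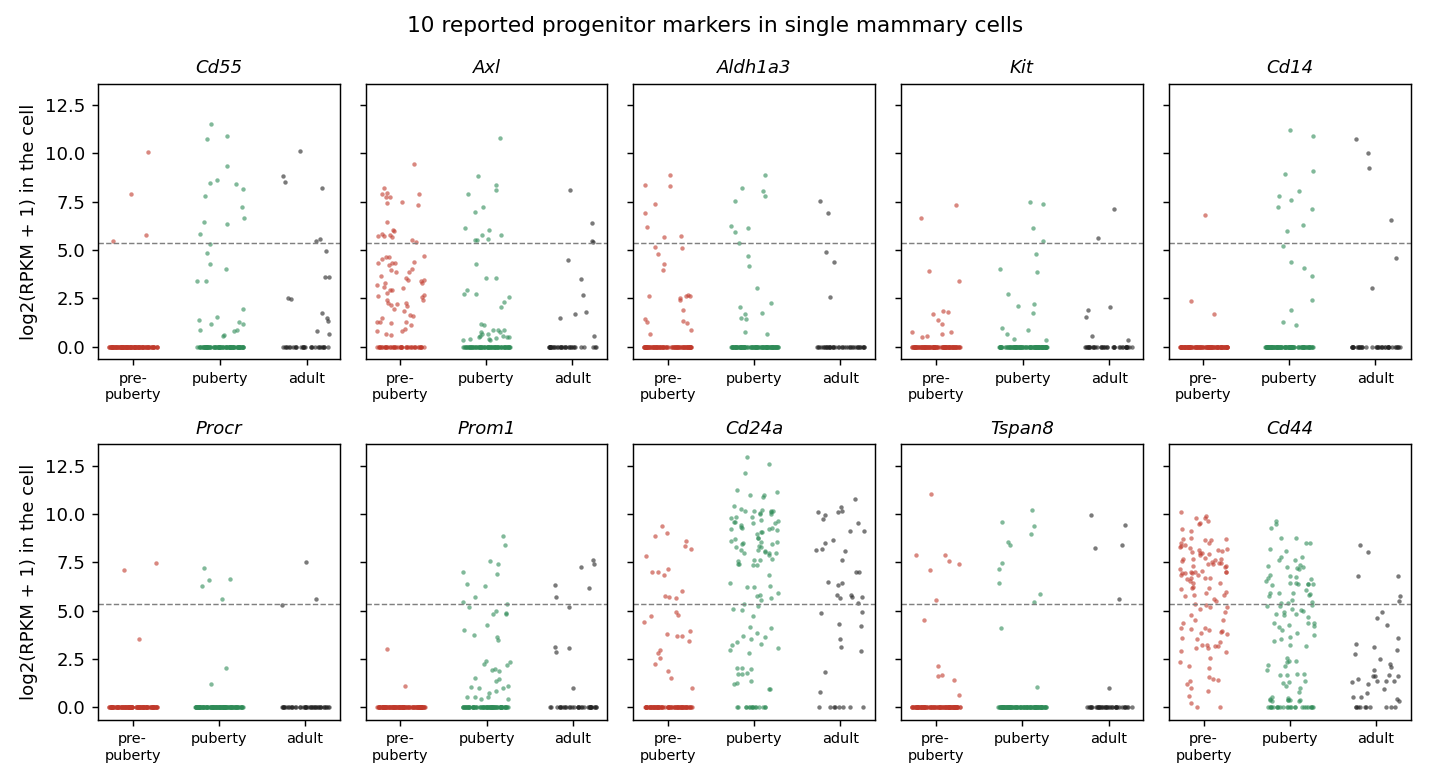
Level of each member in every kept cell, as log2(RPKM + 1) on the vertical axis, by stage on the horizontal axis (116 pre-pubertal, 119 pubertal and 44 adult cells). Each point is 1 cell and the dashed line marks 40 RPKM. Most members lie at 0 in most cells and lie far above the line in a few, whereas Cd24a at puberty and Cd44 at pre-puberty spread over the whole range.

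Cd24a, which encodes a small lipid-anchored surface protein, was the most abundant member at puberty and adulthood. Its median was 0 RPKM in pre-pubertal, 197 RPKM in pubertal and 55.2 RPKM in adult cells. The highest cells reached 664, 7975 and 1788 RPKM, so the range of every stage began at 0 and the stages overlapped. Positive cells made up 12.9% (15 of 116, interval 7.42 to 20.4) at pre-puberty, 63.9% (76 of 119, 54.6 to 72.5) at puberty and 61.4% (27 of 44, 45.5 to 75.6) at adulthood. The pre-pubertal interval lay below both others, which overlapped each other. Over the summed reads of a stage, Cd24a stood at 46.8, 536 and 378 RPKM. The pubertal cell with most reads held 11.0% of them, and 481 RPKM remained without it. Within pre-puberty, Cd24a was positive in 6 of the 22 cells with a keratin and in 9 of the 94 without. CD24 protein was itself a gate of the sort, so Cd24a is not independent of how the cells were picked.

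Cd44, the receptor of hyaluronan, was highest before puberty and lowest in the adult. Its median was 95.1 RPKM in pre-pubertal, 16.9 RPKM in pubertal and 1.93 RPKM in adult cells, with highest cells of 1116, 793 and 341 RPKM. Before puberty 73 of 116 cells were positive (62.9%, interval 53.5 to 71.7), at puberty 43 of 119 (36.1%, 27.5 to 45.4) and in the adult 6 of 44 (13.6%, 5.17 to 27.4). No pair of these intervals overlapped, although the pubertal and adult bounds were 27.5 and 27.4. After thinning to 100000 reads, at least 1 read of Cd44 was seen in 92.2%, 68.9% and 63.6% of cells, so most adult cells held the transcript at a low level. Its summed level was 158.2, 68.0 and 25.2 RPKM. A single adult cell carried 45.2% of the adult reads, and the adult level without it was 14.4 RPKM. Cd44 was positive in 13 of the 22 pre-pubertal cells with a keratin and in 60 of the 94 without, so it was high on both sides of that division.

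Prom1, which encodes a membrane glycoprotein found on cell protrusions, was the member that pre-pubertal cells lacked most completely. It had 9 reads in all 116 cells, and the highest cell stood at 7.06 RPKM. It was positive in 0 of 116 cells, which allows a share of up to 2.59%. At puberty 11 of 119 cells were positive (9.24%, interval 4.71 to 15.9), and the highest were pubertal cell 61 at 462 RPKM and pubertal cell 46 at 335 RPKM. Adult cells were positive in 6 of 44 cases (13.6%, 5.17 to 27.4), led by adult cell 39 at 199 RPKM. The pre-pubertal limit lay below the pubertal and adult intervals, which overlapped each other. Within pre-puberty, Prom1 was positive in 0 of the 22 cells with a keratin and in 0 of the 94 without. The 22 cells alone allow a share of up to 13.6%, which reaches into both later intervals. Thinned to 100000 reads, at least 1 read of Prom1 was found in 0.862%, 24.4% and 22.7% of cells.

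The 250 bases upstream of the annotated starts of Prom1 and Cd44 are shown because these members stood at opposite ends of the pre-pubertal order. They are RefSeq sequences of GRCm38.p6 on the minus strand, at chr5:44101737-44101986 for Prom1 and chr2:102901666-102901915 for Cd44. Capitals mark every match, on either strand, to the TATA box TATAAA, the GC box GGGCGG or the CCAAT box CCAAT.
Prom1: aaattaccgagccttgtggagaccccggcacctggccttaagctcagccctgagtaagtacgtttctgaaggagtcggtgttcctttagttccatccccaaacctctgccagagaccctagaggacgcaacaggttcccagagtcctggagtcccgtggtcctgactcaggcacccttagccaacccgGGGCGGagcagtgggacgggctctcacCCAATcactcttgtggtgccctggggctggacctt
Cd44: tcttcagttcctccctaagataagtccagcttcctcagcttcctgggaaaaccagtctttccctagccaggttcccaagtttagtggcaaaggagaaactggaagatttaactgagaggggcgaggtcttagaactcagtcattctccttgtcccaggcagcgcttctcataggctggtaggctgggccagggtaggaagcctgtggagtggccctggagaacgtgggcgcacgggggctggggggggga
The Prom1 window held a GC box and a CCAAT box, and the Cd44 window held none of the 3 motifs. Among 32851 mouse promoter windows of this length, 32.7% held GGGCGG, 33.8% CCAAT and 12.4% TATAAA. Prom1 also has another annotated start, and the window before it, chr5:44094769-44095018, held none of them. A match describes letters only. Windows were at hand for 7 members, all but Aldh1a3, Cd14 and Cd24a.

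Cd55, Axl, Aldh1a3 and Procr were high in few cells of each stage, and in the pubertal cells these often carried fibroblast transcripts as well. Cd55, the complement decay-accelerating factor, was at 0 RPKM in the median cell of every stage. The highest cells reached 1068 RPKM at pre-puberty, 2892 RPKM at puberty and 1123 RPKM at adulthood. Positive cells numbered 4 of 116 (3.45%, interval 0.947 to 8.59), 14 of 119 (11.8%, 6.58 to 19.0) and 6 of 44 (13.6%, 5.17 to 27.4), and the 3 intervals overlapped. The pubertal positives formed a long tail, with pubertal cells 58, 51 and 103 at 2892, 1912 and 1739 RPKM, 8 cells between 99.6 and 638 RPKM and 3 between 55.5 and 85.9 RPKM. Among the adult cells, adult cells 32, 10, 49 and 12 stood at 1123, 455, 363 and 294 RPKM, well above adult cells 23 and 1 at 45.6 and 43.2 RPKM. The summed level of Cd55 was 12.9, 88.6 and 58.0 RPKM at the 3 stages. It rested on few cells, since the top cell held 90.4%, 39.3% and 64.2% of the reads, and without it the levels were 1.26, 54.4 and 21.5 RPKM.

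Cd55 has a neighbouring copy on chromosome 1, Cd55b, which can matter for the counting of its reads. Of 4801 stretches of 50 bases in the annotated Cd55 transcripts, 384 (8.00%) also occur in Cd55b. Sequence from such a stretch alone cannot be told apart. The read pairs mapped here can also reach bases outside it, so the share of reads affected is not known. Cd55b itself was assigned 1, 5 and 4 reads in all pre-pubertal, pubertal and adult cells, against 1330, 15347 and 2744 reads of Cd55. The likeness extends to the upstream windows of both genes, which are shown with every run of at least 10 bases that occurs in both in capitals (GRCm38.p6, minus strand, chr1:130462745-130462994 and chr1:130423044-130423293).
Cd55: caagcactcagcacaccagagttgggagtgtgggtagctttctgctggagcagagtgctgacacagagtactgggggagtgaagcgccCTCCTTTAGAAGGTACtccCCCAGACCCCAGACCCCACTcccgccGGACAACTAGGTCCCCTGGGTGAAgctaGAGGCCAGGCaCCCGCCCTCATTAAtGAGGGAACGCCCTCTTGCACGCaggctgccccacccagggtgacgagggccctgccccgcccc
Cd55b: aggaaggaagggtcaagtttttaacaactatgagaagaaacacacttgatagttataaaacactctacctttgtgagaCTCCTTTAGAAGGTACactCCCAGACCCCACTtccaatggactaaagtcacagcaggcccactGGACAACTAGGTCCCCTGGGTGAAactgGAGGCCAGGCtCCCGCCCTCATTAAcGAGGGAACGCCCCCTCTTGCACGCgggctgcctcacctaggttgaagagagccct
Runs that overlap are merged in capitals, so a stretch of capitals need not occur whole in the other window. Capitals covered 106 of 250 bases of the Cd55 window and 101 of the Cd55b window, and the longest shared run was 24 bases. Cd55 has further annotated starts outside this window. An exon of the gene Gm16083 on the opposite strand covers 2.10% of the exonic bases of Cd55, and whether the counting used strand is not given in the sources used here. The same holds for Prom1, of which Gm16401 covers 5.91%. Of the other members, Cd24a shared 69 of 2510 such stretches (2.75%) with Gm6212.

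Axl, the Gas6 receptor, was found above the threshold in 20 of 116 cells before puberty (17.2%, interval 10.9 to 25.4), in 14 of 119 at puberty (11.8%, 6.58 to 19.0) and in 4 of 44 in the adult (9.09%, 2.53 to 21.7). These intervals overlapped throughout. Its median was 2.34 RPKM at pre-puberty and 0 RPKM at both later stages, and its highest cells stood at 686, 1790 and 276 RPKM. A low level of Axl was more widespread before puberty, since 71 of 116 pre-pubertal cells held at least 1 read, against 42 of 119 pubertal and 11 of 44 adult cells. Thinned to 100000 reads, the shares with a read were 54.3%, 22.7% and 22.7%. The summed level of Axl was 28.0, 22.7 and 10.7 RPKM, and 20.8, 16.6 and 5.63 RPKM without the top cell of each stage. At puberty the order of the positives was led by pubertal cell 66 at 1790 RPKM, followed by cell 77 at 461 RPKM, and ended with cell 131 at 44.3 RPKM.

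Aldh1a3, the retinaldehyde dehydrogenase behind much of the ALDH activity by which progenitors are sorted, had a median of 0 RPKM at every stage. Its highest cells reached 472, 470 and 183 RPKM. It was positive in 8 of 116 (6.90%, interval 3.02 to 13.1), 9 of 119 (7.56%, 3.52 to 13.9) and 2 of 44 cells (4.55%, 0.555 to 15.5), shares that could not be separated at this depth and number of cells. The summed level was 16.9, 16.7 and 8.06 RPKM. Procr, the endothelial protein C receptor, was among the rarest members, with 2, 5 and 2 positive cells (1.72%, 4.20% and 4.55%). Its pubertal positives were cells 92, 77, 120, 39 and 103 at 146.2, 98.3, 95.9, 76.8 and 48.0 RPKM. The levels of Procr over a stage were 1.42, 4.64 and 5.86 RPKM, from 87, 478 and 165 reads. A single cell of each stage held 56.3%, 54.4% and 77.0% of these reads, and without it the levels were 0.623, 2.15 and 1.38 RPKM, with the adult below puberty. After thinning, at least 5 of 10 endothelial markers were held by 2 of 116, 7 of 119 and 1 of 44 cells. How many of these were positive for Procr is not given here.

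The fibroblast list held 10 genes, among them the collagens Col1a1, Col1a2 and Col3a1 and the proteoglycan Dcn. After thinning, 9 of 119 pubertal cells held at least 5 of these markers, with summed levels of 689 to 37598 CPM (median 15902) against 0 to 4638 CPM (median 5.38) in the other 110 cells. Of these 9 cells, 7 also had a luminal keratin above 40 RPKM. Axl was positive in 8 of the 9 and in 6 of the other 110 (5.45%, interval 2.03 to 11.5). Cd55 was positive in 6 of 9 against 8 of 110 (7.27%), Aldh1a3 in 5 of 9 against 4 of 110 (3.64%) and Procr in 3 of 9 against 2 of 110 (1.82%). The summed level of Cd55 was 723 RPKM in the 9 cells and 35.3 RPKM in the rest. Axl stood at 140.4 against 12.8 RPKM, Aldh1a3 at 103 against 9.44 RPKM and Procr at 23.3 against 3.07 RPKM. All 4 genes were thus more frequent, and higher over the summed reads, in the cells with fibroblast markers. The part of those transcripts in the values of the 4 genes was not tested.

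The same division was made for the remaining members at puberty. Cd14, Tspan8 and Prom1 were each positive in 1 of the 9 cells and in 10 of the other 110, and Kit in 0 and 4. Cd24a was positive in 5 of 9 and 71 of 110 cells. Cd44 was positive in 6 of 9 (66.7%, interval 29.9 to 92.5) and 37 of 110 (33.6%, 24.9 to 43.3), at 142 against 61.8 RPKM over the summed reads. The same division at the other stages held smaller numbers. Among pre-pubertal cells, where the median cell held 3 of 10 fibroblast markers, Axl was positive in 6 of 12 cells with at least 5 of them and in 14 of 104 others, and Cd55 in 3 of 12 and 1 of 104. Both adult cells positive for Aldh1a3 and both positive for Procr fell among the 4 adult cells with at least 5 fibroblast markers, and 0 of the other 40 was positive for either, which allows a share of up to 7.50%. Adult Cd55 positives were mostly outside it, 5 of 40 against 1 of 4.

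**Figure D2:**
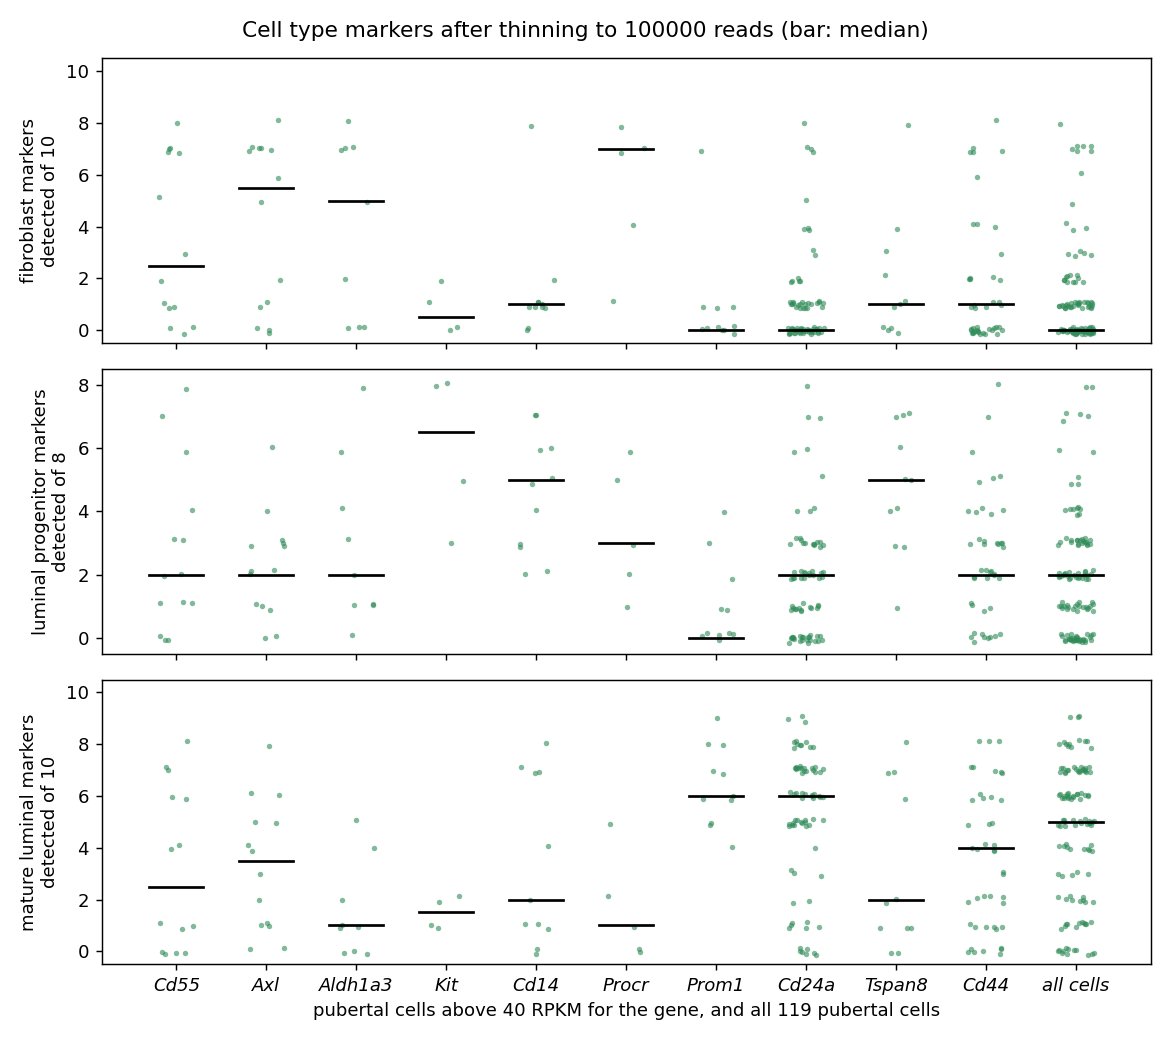
Number of fibroblast (of 10), luminal progenitor (of 8) and mature luminal (of 10) markers detected after thinning to 100000 reads, on the vertical axes, in the pubertal cells above 40 RPKM for each member and in all 119 pubertal cells. Each point is 1 cell and the bar is the median. Procr, Axl and Aldh1a3 have the highest medians of fibroblast markers (7, 5.5 and 5), Kit, Cd14 and Tspan8 of luminal progenitor markers (6.5, 5 and 5), and Prom1 and Cd24a of mature luminal markers (6 and 6).

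Kit, Cd14 and Tspan8 were found at puberty in cells with a higher median number of luminal progenitor markers than the other cells. Kit was positive in 2 of 116 (1.72%, interval 0.209 to 6.09), 4 of 119 (3.36%, 0.923 to 8.38) and 2 of 44 cells (4.55%, 0.555 to 15.5). The pubertal positives were cells 16 and 28 at 177 and 163 RPKM, cell 4 at 68.8 RPKM and cell 93 at 42.8 RPKM, just above the threshold. The 4 cells held between 3 and 8 of 8 luminal progenitor markers, such as Elf5, Csn3 and Ltf, with a median of 6.5, against a median of 2 in the other 115. Mast cell and melanocyte markers, which mark other cells known for Kit, were at 0 CPM in all 4 pubertal cells. The 2 adult positives, adult cells 10 and 43, each held 7 of 8 luminal progenitor markers.

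Cd14, the co-receptor of Tlr4 for lipopolysaccharide, was nearly absent before puberty. All 116 pre-pubertal cells together held 23 reads of it, of which 20 came from pre-pubertal cell 55 at 110 RPKM, the only positive cell (0.862%, interval 0.022 to 4.71). That made 1 of the 22 pre-pubertal cells with a keratin (4.55%, 0.115 to 22.8) and 0 of the 94 without. The interval for the 22 cells covers the pubertal and adult shares. At puberty 11 of 119 cells were positive (9.24%, 4.71 to 15.9), from 61.9 RPKM in cell 78 to 1906 RPKM in cell 4 and 2326 RPKM in cell 80. At adulthood 4 of 44 were positive (9.09%, 2.53 to 21.7), adult cells 51, 21, 32 and 30 at 1705, 1032, 598 and 92.0 RPKM. The summed level was 0.377, 52.0 and 71.8 RPKM, and the top cell held 50.9% of the pubertal and 46.8% of the adult reads. The pubertal positives held a median of 5 luminal progenitor markers against 1 in the other 108 cells, and the adult ones 6 against 3. Monocytes also make CD14. None of the 11 pubertal positives held more than 1 of 10 immune markers, and their highest summed level was 1.08 CPM. Of the 4 adult positives, 1 held 6 immune markers at 9317 CPM.

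Tspan8 was positive in 7 of 116 (6.03%, interval 2.46 to 12.0), 11 of 119 (9.24%, 4.71 to 15.9) and 5 of 44 cells (11.4%, 3.79 to 24.6), and the intervals overlapped. Its summed level was 23.4, 39.7 and 60.8 RPKM. Most of the pre-pubertal reads (74.1%) came from pre-pubertal cell 50 at 2085 RPKM, and the level without it was 6.10 RPKM. The pubertal positives were led by cells 85, 51, 62 and 3 at 1172, 775, 665 and 495 RPKM, and the adult ones by adult cell 7 at 1005 RPKM and adult cell 43 at 691 RPKM. Positive cells held a median of 5 luminal progenitor markers at puberty and 7 at adulthood, against 1.5 and 3 in the others. Before puberty, Tspan8 was positive in 5 of the 22 cells with a keratin (22.7%) and in 2 of the 94 without.

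Prom1 was found in cells with mature luminal transcripts. The 11 positive pubertal cells held a median of 0 luminal progenitor and 6 mature luminal markers, such as the oestrogen and progesterone receptor genes Esr1 and Pgr. At least 5 of the 10 mature luminal markers were held by 10 of the 11. Most pubertal cells shared this trait, since 72 of all 119 held as many. The other 108 pubertal cells had medians of 2 and 5. In the adult, the 6 positive cells held a median of 7 mature luminal markers against 2.5 in the other 38. By contrast the pubertal positives for Kit, Cd14, Tspan8 and Aldh1a3 had medians of 1.5, 2, 2 and 1 mature luminal markers, where the remaining cells had 5 in each case.

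**Figure D3:**
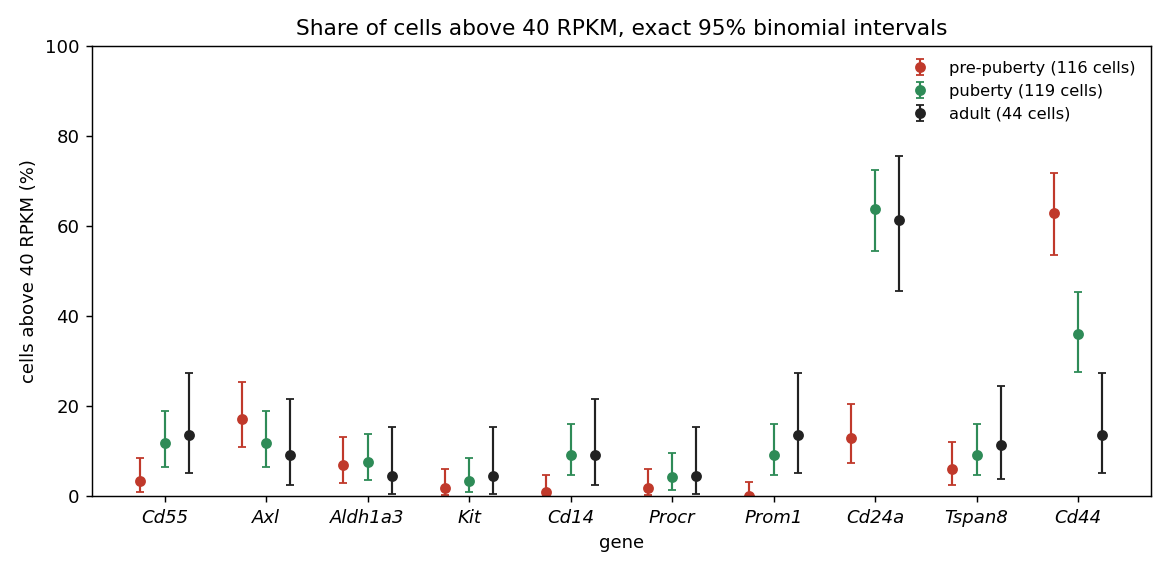
Share of kept cells above 40 RPKM for each member at each stage, in percent on the vertical axis. Points are shares and bars are exact 95% binomial intervals over 116, 119 and 44 cells. Cd24a (12.9%, 63.9%, 61.4%) and Cd44 (62.9%, 36.1%, 13.6%) had their lowest and highest share, respectively, at pre-puberty, and the other 8 members stayed at or below 17.2%.

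The order of the members by summed RPKM differed between stages. At pre-puberty Cd44 (158.2 RPKM) and Cd24a (46.8 RPKM) led, followed by Axl, Tspan8, Aldh1a3 and Cd55 between 28.0 and 12.9 RPKM, with Kit, Procr, Cd14 and Prom1 at or below 1.99 RPKM. At puberty Cd24a (536 RPKM) led Cd55 (88.6), Cd44 (68.0), Cd14 (52.0), Tspan8 (39.7), Axl (22.7), Prom1 (17.6) and Aldh1a3 (16.7), with Procr and Kit last at 4.64 and 4.25 RPKM. At adulthood Cd24a (378 RPKM) was followed by Cd14, Tspan8 and Cd55 between 71.8 and 58.0 RPKM, and Kit was again last at 4.28 RPKM. Neighbours in these orders depended on single cells. Without the top cell of each gene, Cd55 would pass from 88.6 to 54.4 RPKM at puberty, below Cd44 at 61.6 RPKM. At adulthood Procr would pass from 5.86 to 1.38 RPKM, below Kit at 1.90 RPKM, while Cd55 would stay the fourth at 21.5 RPKM.

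The stages were also set side by side as log2 ratios of CPM after 5 CPM had been added, over genes at 10 CPM or more at either stage. Procr was below that minimum at all stages, and 9 members were compared. Cd14 and Prom1 reached it only through puberty and adulthood, so they were bound to differ, and their ratios depend on the constant added. Cd44 was higher at pre-puberty than at puberty by 1.21, the only member of 9 past 2-fold in that direction, where 21.4% of 9876 genes were. Cd14 (-3.90), Prom1 (-3.89), Cd24a (-3.44) and Cd55 (-2.60) were higher at puberty by more than 2-fold, 4 of 9 members beside 24.0% of all genes. Against adulthood, Cd44 (2.61) and Axl (1.32) were higher at pre-puberty, 2 of 9 beside 31.7%. Cd14 (-4.34), Prom1 (-4.03), Cd24a (-2.94), Cd55 (-2.01) and Tspan8 (-1.27) were higher at adulthood, 5 of 9 beside 28.9%.

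Between puberty and adulthood the differences were smaller. Cd44 (1.403) and Axl (1.02) were higher at puberty by more than 2-fold, 2 of 9 members beside 28.4% of 9470 genes, and 0 of 9 were higher at adulthood by that much, where 20.6% of genes were. Aldh1a3 lay just inside the limit at 0.93, and Kit (-0.01) and Prom1 (-0.15) were close to even. The median over the members was -0.82, -1.27 and 0.50 in the 3 comparisons, beside -0.12, 0.03 and 0.10 over all genes compared. With the top cell of each stage left out, 4 further ratios passed 2-fold, Tspan8 between pre-puberty and puberty (-1.78), Aldh1a3 of either earlier stage over adulthood (1.17 and 1.16) and Cd55 of puberty over adulthood (1.26). The share of all genes past 2-fold in that setting is not given here, so these 4 ratios cannot be set beside a background. Ratios between summed reads of few positive cells cannot tell a higher level per cell from more cells of a kind.

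Cells were next divided by their keratins into those with a basal keratin only, a luminal keratin only, both or neither. At puberty these classes held 7, 77, 27 and 8 cells, and at adulthood 5, 22, 14 and 3. Cd44 was positive in 6 of 7 pubertal basal keratin cells (85.7%, interval 42.1 to 99.6), in 24 of 77 luminal keratin cells (31.2%, 21.1 to 42.7) and in 10 of 27 with both (37.0%, 19.4 to 57.6). At adulthood the basal keratin class had 0 of 5 cells positive for Cd44, so the pubertal order was not repeated in these few cells. Cd24a was positive in 4 of 7, 52 of 77 and 19 of 27 pubertal cells and in 2 of 5, 17 of 22 and 8 of 14 adult cells. Its lowest pubertal share was in the cells with neither keratin, 1 of 8 (12.5%).

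The rarer members were counted in the same classes, of which those with a basal keratin only were too small to set their shares apart. Among the 7 pubertal basal keratin cells, 0 was positive for Cd55, Axl, Aldh1a3, Kit, Cd14, Prom1 or Tspan8, which allows a share of up to 42.9% for each, and 1 (14.3%) was positive for Procr. In the 77 pubertal luminal keratin cells, Prom1 was positive in 10 (13.0%, interval 6.41 to 22.6), Cd55 and Cd14 in 9 each (11.7%), Tspan8 in 8 (10.4%), Aldh1a3 in 6 (7.79%), Axl in 5 (6.49%), Kit in 3 (3.90%) and Procr in 1 (1.30%). Axl had its highest share in other classes, 6 of 27 cells with both keratins (22.2%, 8.62 to 42.3) and 3 of 8 with neither (37.5%, 8.52 to 75.5). All 4 adult Cd14 positives and both adult Kit positives had a luminal keratin only, as did 5 of 6 for Prom1, whereas the 4 Axl positives had a basal keratin only (1) or both (3).

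**Figure D4:**
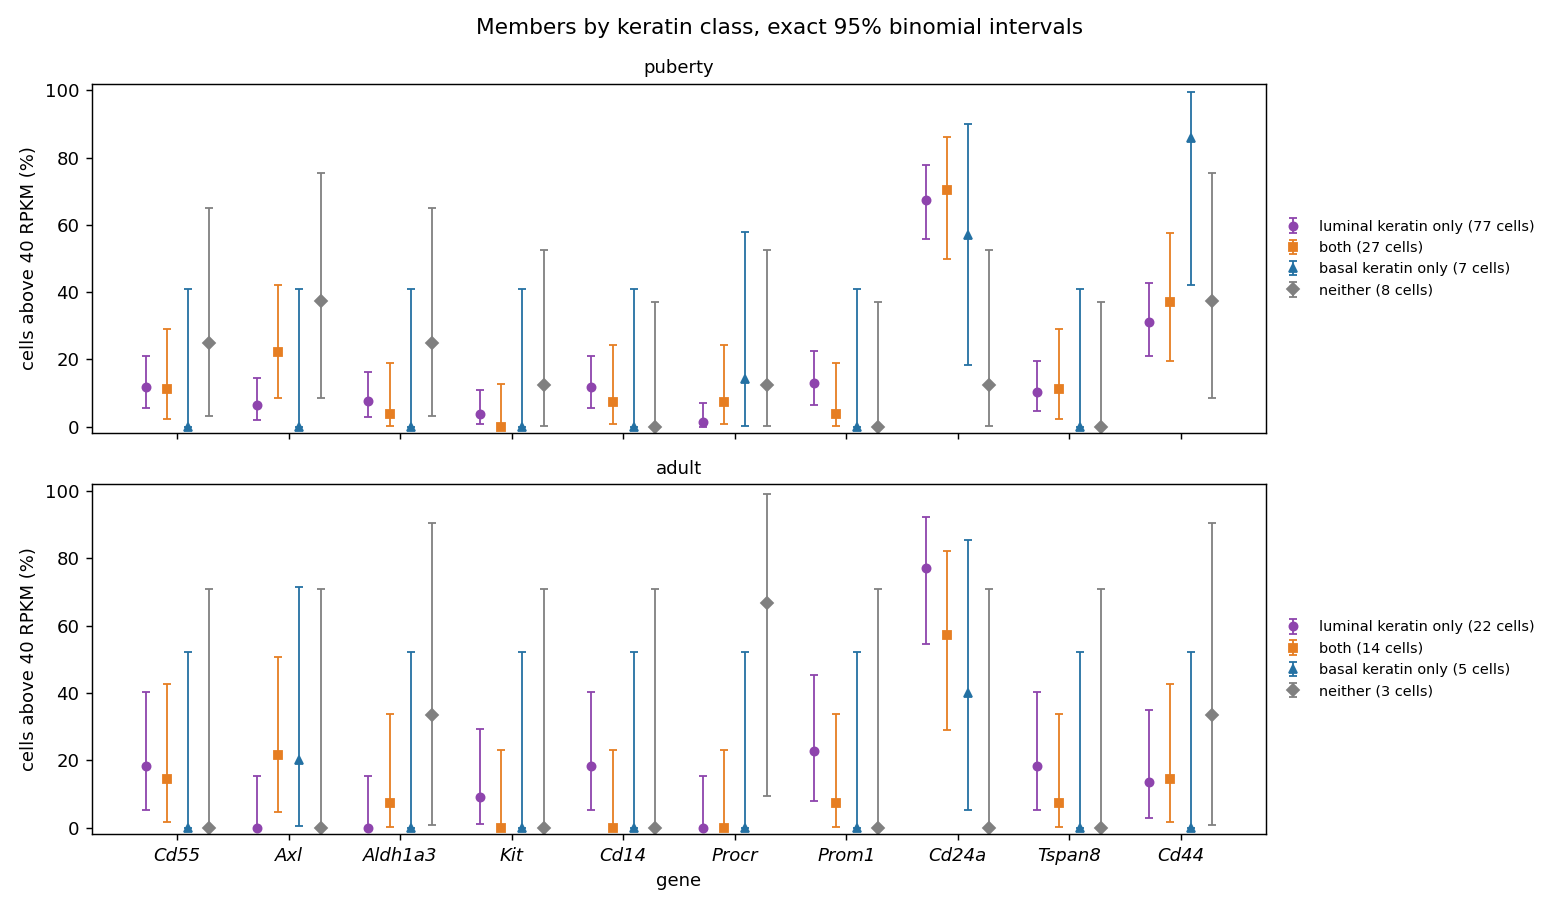
Share of cells above 40 RPKM for each member, in percent on the vertical axis, in pubertal (top) and adult (bottom) cells with a luminal keratin only, both, a basal keratin only or neither. Bars are exact 95% binomial intervals and are wide in the classes of 3 to 8 cells. Prom1, Cd14 and Kit have their adult positives almost wholly in cells with a luminal keratin only, while Cd24a is frequent in every pubertal class with a keratin.

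Co-detection was counted as cells above 40 RPKM for both genes of a pair. At puberty 38 of 45 pairs were seen in at least 1 cell and 14 in at least 5, against 18 and 4 pairs at pre-puberty and 22 and 1 at adulthood. The stages differ in number of cells and in depth, so these counts are not directly comparable. A chamber with more than 1 cell would add to them, and this was not tested. At least 1 member was positive in 78.4% (interval 69.9 to 85.5), 87.4% (80.1 to 92.8) and 81.8% (67.3 to 91.8) of pre-pubertal, pubertal and adult cells, and at least 2 in 25.0%, 45.4% and 43.2%. Of the 8 rarer members, at least 1 was positive in 30.2% (22.0 to 39.4), 40.3% (31.4 to 49.7) and 50.0% (34.6 to 65.4) of cells, and at least 2 in 6.90% (3.02 to 13.1), 14.3% (8.55 to 21.9) and 18.2% (8.19 to 32.7).

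At puberty the pair most often seen among the rarer members was Cd55 with Aldh1a3. The study had already grouped Cd55, Aldh1a3 and Axl in a cluster of its pubertal and adult C1 cells. Their co-detection here is therefore not independent of that earlier result. Of 9 pubertal cells positive for Aldh1a3, 7 were positive for Cd55 (77.8%, interval 40.0 to 97.2), against 7 of the other 110 (6.36%, 2.60 to 12.7). Seen from Cd55, this was 7 of 14 cells (50.0%). The 7 cells were pubertal cells 29, 51, 58, 93, 103, 104 and 120. Of these, 5 were among the 9 cells with at least 5 fibroblast markers, and cells 51 and 93 were not. At adulthood the pair was seen in 1 cell and at pre-puberty in 0, although 4 and 8 pre-pubertal cells were positive for the 2 genes.

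Axl shared cells with the same genes. At puberty it was positive together with Cd55 in 5 cells, with Aldh1a3 in 4 and with Procr in 3, and every one of these cells held at least 5 fibroblast markers. At pre-puberty 3 of the 4 cells positive for Cd55 were positive for Axl, against 17 of the other 112 (15.2%). All 4 were also positive for Cd44, as were 61.6% of the others. Pubertal cell 120 stood out, being positive for 8 members, all but Kit and Prom1, at 658839 reads and 4729 genes. It held 8 of 10 fibroblast markers. Across the 9 pubertal cells with at least 5 fibroblast markers, each was positive for at least 1 of the 8 rarer members and 7 for at least 2, against 39 and 10 of the other 110.

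Cd14 and Tspan8 formed another pair. Each was positive in 11 pubertal cells, and 5 cells were positive for both (45.5%, interval 16.7 to 76.6), against 5.56% of the cells without the first gene. Of these 5, 4 held fewer than 5 fibroblast markers. Adult cells 21 and 30 were also positive for both, out of 4 and 5. Cd14 was found with Cd55 in 4 pubertal cells, and Tspan8 with Cd55 in 4. Prom1 shared 0 pubertal cells with Aldh1a3, Kit, Procr or Tspan8, and 2 each with Cd55 and Cd14. It was found with Cd24a in 10 of its 11 cells (90.9%, 58.7 to 99.8), where 61.1% of the cells without Prom1 were positive for Cd24a, and in 5 of its 6 adult cells. Kit shared 3 of its 4 pubertal cells with Cd44.

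Cd24a and Cd44, whose proteins are often read together, were positive in the same 25 pubertal cells. That was 32.9% of the 76 cells positive for Cd24a, against 41.9% of the 43 without it. At pre-puberty 7 of 15 cells positive for Cd24a had Cd44 (46.7%), against 65.3% of the others, and at adulthood 4 of 27 (14.8%) against 11.8%. The share without Cd24a lay inside the interval of the share with it at puberty (22.5 to 44.6), at pre-puberty (21.3 to 73.4) and at adulthood (4.19 to 33.7).

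**Figure D5:**
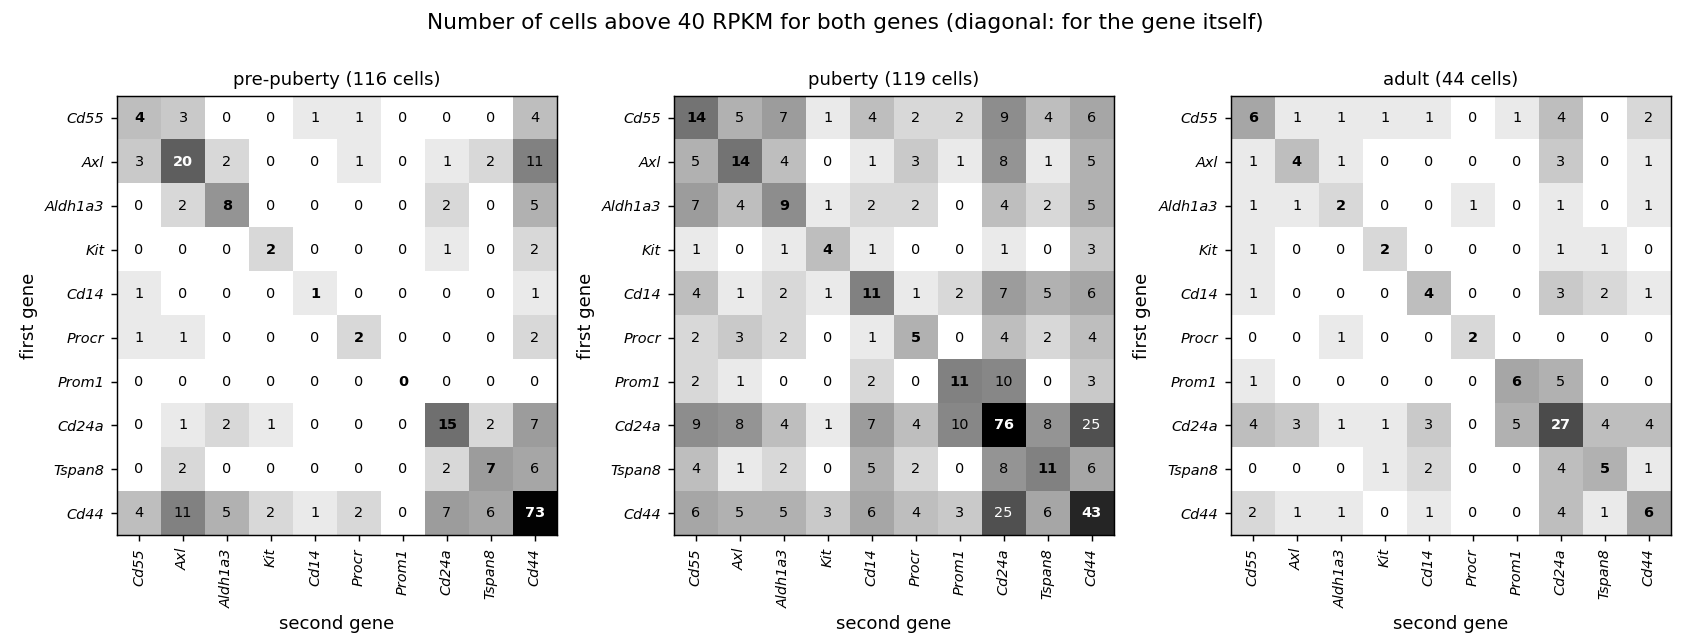
Number of cells above 40 RPKM for both genes of each pair at pre-puberty (116 cells), puberty (119) and adulthood (44), with the number for the gene itself on the diagonal. Darker squares hold more cells. At puberty the Cd55 row shows 7 cells shared with Aldh1a3 and 5 with Axl, the Cd14 row 5 with Tspan8, and the Prom1 row 10 with Cd24a and 0 with 4 other members.

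Ligands and partners of the members were taken from a list of 24 genes, of which 16, 14 and 14 reached the minimum in the 3 comparisons. A gene nearly absent at a stage reached it only through the other stage and was bound to differ. This holds for the list and for all genes compared. Between pre-puberty and puberty, 7 were higher at pre-puberty and 6 at puberty by more than 2-fold, beside 21.4% and 24.0% of all genes, and the median log2 ratio was -0.02 beside -0.12. Between pre-puberty and adulthood 6 and 5 were, beside 31.7% and 28.9% (median 0.15 beside 0.03). Between puberty and adulthood 5 and 3 were, beside 28.4% and 20.6% (median 0.00 beside 0.10). Its most abundant members were Spp1, Cd59a, Kitl and Ly96. Spp1, or osteopontin, a ligand of CD44, stood at 5.85, 249 and 1828 RPKM in the order of stages, but at 0.93, 41.0 and 280 RPKM without its top cells. Cd59a, which like Cd55 protects cells from complement, was at 496 RPKM before puberty and at 51.4 and 61.7 RPKM after it. Without its top cells it was at 484, 39.4 and 13.3 RPKM, and 1 adult cell held 78.6% of the adult reads. Kitl, the ligand of Kit, was at 81.4, 121 and 216 RPKM and positive in 36.2%, 42.0% and 63.6% of cells, far more than Kit. Ly96, a partner of Tlr4 as CD14 is, was at 10.5 and 80.8 RPKM (2.38 and 55.0 RPKM without the top cell) and listed at 0 in the adult cells.

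Of 20 other reported mammary stem or progenitor markers, 15 reached the minimum in each comparison. Here too, genes nearly absent at a stage reached it only through the other stage and were bound to differ. By more than 2-fold, 6 were higher at pre-puberty and 7 at puberty, where 21.4% and 24.0% of all genes were, with a median log2 ratio of -0.05 beside -0.12. Against adulthood, 4 were higher at pre-puberty and 8 at adulthood, where 31.7% and 28.9% of genes were (median -1.05 beside 0.03). Between puberty and adulthood 2 and 3 were, where 28.4% and 20.6% of genes were (median 0.17 beside 0.10), with 10 between the limits. The most abundant were Ly6a (Sca-1), the transcription factor Sox9 and the integrins Itgb1 (CD29) and Itga6 (CD49f). Ly6a stood at 50.0, 1156 and 1995 RPKM and was positive in 5.17%, 56.3% and 40.9% of cells. Sox9 was at 13.6, 383 and 196 RPKM and positive in 12.1%, 80.7% and 52.3%. The shares of both were in the order of Cd24a, lowest before puberty and highest at puberty. Itgb1, whose protein was used in the sort, was at 247, 102 and 150 RPKM and positive in 87.1%, 52.1% and 40.9%. Itga6 was at 139, 80.7 and 69.1 RPKM and positive in 56.9%, 41.2% and 27.3%. Both integrins had the order of Cd44 in their shares of positive cells.

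The genes most like a member were sought over the 119 pubertal cells at 100000 reads each, among 4802 genes, for the 4 members positive in at least 10% of them. Axl was most like Timp3 (Spearman's rho 0.60), Sema3c (0.56) and Calcrl (0.53), with 0.19, 0.48 and 0.14 over the 44 adult cells. Cd24a was most like Il33 (0.48), Dap (0.41) and the progesterone receptor gene Pgr (0.40), with 0.06, 0.10 and -0.07 in the adult. Cd44 was most like Efna5 (0.46), Dpysl2 (0.44) and the casein gene Csn3 (0.43), with 0.50, 0.31 and 0.21 in the adult. For Cd55 no gene reached 0.40. Cells at this depth share zeros for many genes, and these values are descriptions over cells of 1 sample.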

How the data were processed

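Single sorted cells from the mammary epithelium were captured on the Fluidigm C1, and libraries were made with the Nextera XT kit and sequenced on an Illumina HiSeq. The authors mapped read pairs to the mouse genome mm10 with Subread (version 1.4.6 in the submitters' processing notes) and counted them per Entrez gene with featureCounts. The deposited files, 1 per cell, hold raw counts and gene lengths, with no filter on genes. A deposited table of the same cells side by side was not used.

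Of 27179 genes, 25275 were matched to a symbol, and 15 mitochondrial and 85 ribosomal protein genes were removed, as were 1904 genes with no match. RPKM was the count divided by gene length and by the total over the 25175 analysed genes. Cells with at least 100000 reads and 1500 genes were kept. No doublet caller was run, because the authors inspected the chambers by microscope. Whether a chamber with both keratin and fibroblast transcripts held 2 cells was not tested. No 2 cells had identical counts. Levels were summed over the cells of a stage, with exact Poisson intervals. Shares carry exact Clopper-Pearson intervals at the 95% level, and a share of 0 the limit that 3 cells allow. Reads without molecular identifiers are not independent molecules, so intervals cover counting error only. Depth per kept cell ran from 109394 to 1189810 reads. Cells were thinned at random (seed 20) to 100000 reads for marker lists and correlations.

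Each stage was 1 sample, and no p-value was computed. The members, marker lists and partner lists were chosen with earlier results of these data known. The genes named were the 10 members, the 4 genes of each list with the highest summed RPKM at any stage, marker genes of a class, and for members positive in at least 10% of pubertal cells the 3 genes with the largest Spearman correlation, where it was 0.4 or more, among genes seen in at least 20% of these cells. Alternatives were other coverage filters, thresholds of 20 and 80 RPKM, another total, thinning, pre-pubertal cells numbered 38 and above, equal weight for cells, leaving out the top cell, and other constants and minimums for ratios. Subsets by keratin and by fibroblast markers were added after seeing the data. Functions were tested on simulated data. Python 3.11.15, numpy 2.4.6, scipy 1.17.1 and pandas 2.3.3 were used. Promoter windows and transcripts came from RefSeq (GRCm38.p6) and GENCODE M21.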

Additional observations from a re-analysis of the deposited data

Results flagged for a closer look

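Cells below the coverage minimum entered no comparison, and reads of the members were found in them at every stage, above the limit that a count of 0 allows. The summed level of the 10 members was 978 CPM in the 28 pre-pubertal cells below it (interval 896 to 1066), 590 CPM in the 17 pubertal cells (536 to 648) and 2067 CPM in the 22 adult cells (1934 to 2206), beside limits of 5.63, 4.00 and 6.87 CPM. In the kept cells it was 1260, 1994 and 1369 CPM. Cd44 held 68.3% of these pre-pubertal reads and Cd24a 51.0% of the adult reads. Axl held 55.7% of the pubertal reads, and a single cell held 55.7% of the pubertal reads of all members.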

How the results depend on the processing

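Shares of cells above the threshold, 30 in all, stayed within their own intervals with no coverage filter, at 20 RPKM, with the total over every gene and after thinning, as did the 10 pre-pubertal shares in cells numbered 38 and above. Those 104 cells make up most of the stage. They had a median of 283570 reads, against 937224 in the 12 kept cells numbered 1 to 37. Between these 12 cells and the 104, Cd24a stood at 115 against 23.0 RPKM and was positive in 4 and 11 cells. Cd44 stood at 103 against 177 RPKM, and Axl at 7.94 against 35.0 RPKM. At 80 RPKM the share for Axl was 9.48% at pre-puberty and 5.88% at puberty, and for Cd44 52.6% and 26.1%, while the other 26 stayed. With at least 200000 reads, the pre-pubertal shares of Cd14 and Procr were 0%. Of the subsets chosen after seeing the data, cells with a keratin gave pre-pubertal shares of 0% for Kit and Procr, 27.3% for Cd24a and 22.7% for Tspan8, and 0% for adult Procr. Cells with fewer than 5 fibroblast markers gave 5.45% for pubertal Axl and 0% for adult Aldh1a3 and Procr. These subsets hold fewer cells by construction, and the cause of the other differences was not tested. Without the top cell all 30 summed levels left their counting interval, and with equal weight for each cell 22 did. Counts of members past 2-fold were equal with no minimum, and with 1 CPM added 4 of 6 counts were higher by 1 member. In the keratin classes, at 20 RPKM, 2 of 80 shares left their interval. No paired analysis was possible because cell numbers only name cells and no test was made between stages. The 44 adult cells give the widest intervals, so small differences from the other stages were not detectable.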
